A study of Homo sapiens with 12 samples.

Results

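The genes described here encode collagens, laminins and matrix glycoproteins, with the enzymes that cross-link them, and were taken from a list of 39 genes. The list was chosen with earlier results of these data known. Of the list, 39 of 39 genes had a probe set with a single gene symbol, out of 19775 genes measured. The list holds 6 fibrillar collagen chains, 4 collagen IV chains of basement membranes, 6 other collagen chains, 7 laminin chains, 5 cross-linking enzymes, 2 nidogens, 3 fibre-forming glycoproteins and 6 matricellular proteins. They were measured in U-87 MG, an established human glioma cell line, stably transfected with a short hairpin RNA against p105 (shp105) or with a control hairpin (shControl). Each line received 100 uM temozolomide (TMZ), a DNA-alkylating drug, or its vehicle DMSO for 16 h. The 4 groups were shp105 with TMZ, shp105 with DMSO, shControl with TMZ and shControl with DMSO, each with 3 arrays called biological replicates. The comparisons ask how a line with a hairpin against p105, from which the NF-kB protein p50 is cut, differs from its control, and how each line responds to the drug. The labels do not say whether a line was 1 clone or a pool, and each hairpin was represented by 1 line, so that hairpin and line cannot be told apart.

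The extracellular matrix is the protein network that cells secrete around themselves. Fibrillar collagens assemble into tension-bearing fibres, while collagen IV and laminins form 2 sheet-like networks of the basement membrane that nidogens bridge. Lysyl oxidases cross-link collagen and elastin, and matricellular proteins such as tenascin C and the thrombospondins regulate how cells interact with the matrix rather than bearing load. Normal brain tissue holds little fibrillar collagen, whereas gliomas carry a matrix rich in tenascin C, versican, fibronectin and vessel-associated collagen IV and laminins.

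Values are log2 expression levels, on which a difference of 1 is a 2-fold difference. A gene is called changed when its Benjamini-Hochberg adjusted p over the 19775 genes is under 0.05 in limma's moderated test. Array medians lay between 5.04 and 5.09, and levels correlated at 0.997 to 0.998 within groups and at 0.990 to 0.992 between the lines. NFKB1, which encodes p105, averaged 7.16 in shp105 cells and 7.41 in shControl cells with TMZ (log2 difference -0.25, SE 0.07, adjusted p = 0.0204), with no overlap of the arrays. In DMSO it averaged 7.20 in shp105 cells and 7.32 in shControl cells, with overlapping arrays (-0.12, adjusted p = 0.260), so that its RNA was not called lower there. No protein was measured. The intermediate filament gene VIM averaged 14.7 to 14.8 in the 4 groups and the hyaluronan receptor CD44 averaged 12.6 to 13.0. Of 10 glioma and glial markers, 3 (S100B, FABP7 and AQP4) stayed in all groups under 4.06, the highest mean level of 27 probe sets for sequences absent from human cells, and GFAP averaged 5.05 to 5.21. Of 8 endothelial markers, 3 stayed under that level (CDH5, ERG and EMCN), and so did 2 of 7 leukocyte markers (PTPRC and CD14), while the rest lay above it in at least 1 group, such as PECAM1 at 5.81 to 5.87 and CSF1R at 6.54 to 7.0. Of 18 hybridization spike-in probe sets, which are added in fixed amounts, the mean level was 11.32 in shp105 and 10.95 in shControl arrays with TMZ, and 11.13 in shp105 and 10.63 in shControl arrays with DMSO.

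Between the lines most of the listed genes differed, in both directions. Because the list was chosen with earlier results of these data known, its counts describe these genes and are no test of the list. In DMSO 28 of the 39 were called, 17 higher and 11 lower in shp105 cells than in shControl cells, against 19.9% of all genes called, 8.34% higher and 11.6% lower. With TMZ 30 were called, 17 higher and 13 lower, against 21.1% of all genes called, 10.1% higher and 11% lower. Bright genes are called more often than dim ones, and 31 of the 39 lay at or above the median gene level: of these 31, 27 were called in DMSO and 28 with TMZ, against 31.4% and 32.6% of all genes at or above the median.

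The median size of the difference among the 39 genes was 0.36 in DMSO and 0.37 with TMZ, against 0.11 and 0.12 over all genes. Their signed medians were 0.07 and -0.00, so the list as a whole did not sit on 1 side. A 2-fold difference was passed by 6 listed genes in DMSO and 7 with TMZ, where 1.77% and 1.75% of all genes were called at that size. Array ranges of the lines did not overlap for 32 of the 39 genes in DMSO and 31 with TMZ, against 35.9% and 35.7% of all genes.

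**Figure D1:**
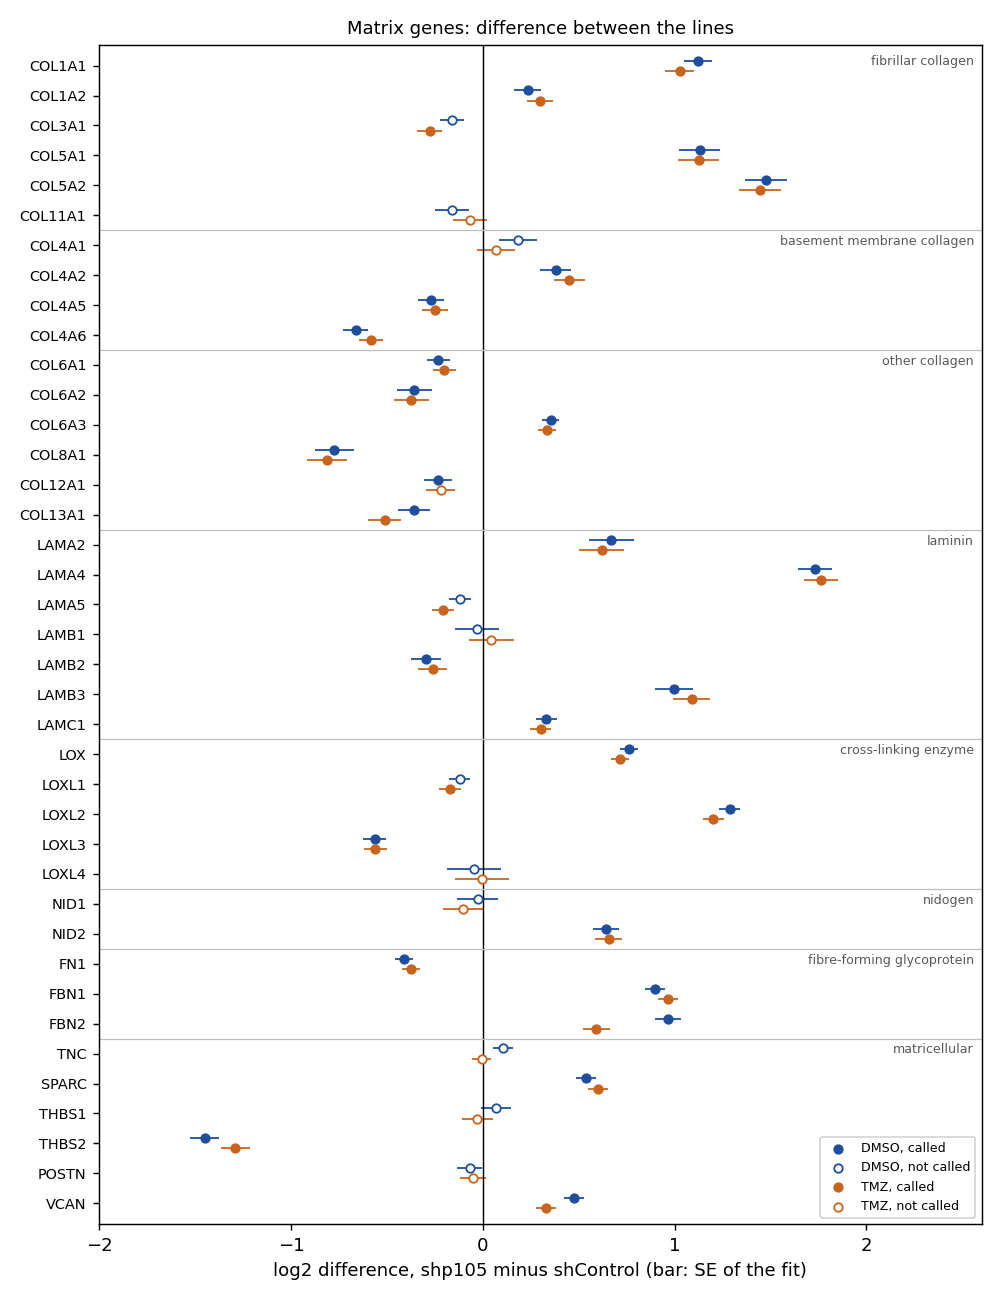
Log2 difference between shp105 and shControl cells for the 39 matrix genes, grouped by role, in DMSO (blue) and with TMZ (orange); bars are standard errors of the fit over 12 arrays and filled points are called. LAMA4, COL5A2 and LOXL2 lie farthest to the right and THBS2 farthest to the left under both treatments.

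The differences in DMSO and with TMZ rest on separate arrays and can be set side by side. They compare the same lines and share 1 estimate of the spread, so they are not independent repeats. Of the 39 genes, 27 were called in the same direction under both treatments, 17 higher and 10 lower in shp105 cells. COL12A1 was called in DMSO but not with TMZ (adjusted p = 0.0458 and 0.0552), and COL3A1, LAMA5 and LOXL1 were called with TMZ but not in DMSO. None was called in opposite directions. Across the 39 genes the differences under both treatments correlated with r = 0.99 and rho = 0.99, over genes that are not independent replicates.

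Fibrillar collagens gave 3 of the 6 listed genes that differed at least 2-fold in DMSO, all higher in shp105 cells. Of the 6 chains, 4 were higher and 0 lower in DMSO, and 4 were higher and 1 lower with TMZ. The chains of collagen V, which nucleates and limits the width of collagen I fibres, were both higher.

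COL5A2, the alpha-2 chain of collagen V, read 7.65, 7.71 and 8.0 in shp105 cells and 6.47, 6.10 and 6.36 in shControl cells in DMSO. On TMZ, the arrays read 7.85, 7.69 and 7.84 in shp105 cells, against 6.29, 6.47 and 6.29 in shControl cells. Every shp105 array lay more than a full log2 unit above every shControl array. The differences were 1.48 (SE 0.11, adjusted p = 1.81e-06) in DMSO and 1.44 (SE 0.11, adjusted p = 2.33e-06) with TMZ, or 2.78-fold and 2.72-fold.

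COL5A1, the alpha-1 chain, read 8.26, 8.44 and 8.17 in shp105 cells in DMSO, against 7.09, 7.15 and 7.23 in shControl cells. Under TMZ the values were 7.92, 8.24 and 8.09 in shp105 cells, against 6.79, 7.17 and 6.91 in shControl cells. The lines did not overlap under either treatment, and the difference was the same size in both, 1.13 (SE 0.11, adjusted p = 1.52e-05 in DMSO and 1.57e-05 with TMZ). The 250 bases upstream of the COL5A1 start are printed because this chain passed 2-fold under both treatments and its window holds GGGCGG, the motif found in most windows of the list. They lie at chr9:134641553-134641802 on the plus strand of GRCh38.p14, from RefSeq, and the capitals mark 2 copies of GGGCGG, both read on the opposite strand as CCGCCC.
COL5A1: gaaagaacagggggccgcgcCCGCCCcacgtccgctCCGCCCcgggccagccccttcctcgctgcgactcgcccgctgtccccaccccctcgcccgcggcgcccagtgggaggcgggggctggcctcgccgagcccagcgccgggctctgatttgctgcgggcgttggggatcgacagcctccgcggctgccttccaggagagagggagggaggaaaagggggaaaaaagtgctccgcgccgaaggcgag

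COL1A1, the alpha-1 chain of collagen I, read 8.82, 9.03 and 8.78 in shp105 cells in DMSO, against 7.65, 7.77 and 7.83 in shControl cells. Its TMZ levels were 8.52, 8.59 and 8.46 in shp105 cells, against 7.50, 7.45 and 7.55 in shControl cells. All shp105 arrays stood above all shControl arrays, with differences of 1.12 (SE 0.07, adjusted p = 6.47e-07) in DMSO and 1.03 (SE 0.07, adjusted p = 1.46e-06) with TMZ. Its partner in the collagen I trimer, COL1A2, differed far less, by 0.23 (SE 0.07, adjusted p = 0.0341) in DMSO and 0.30 (adjusted p = 0.0094) with TMZ. COL3A1, the collagen III chain, was called lower with TMZ alone (-0.28, SE 0.06, adjusted p = 0.00856), but it averaged 3.88 in shp105 cells and 4.16 in shControl cells there, near or under the absent-sequence controls, so no size is read from it. COL11A1 stayed under the level of those controls in all 4 groups.

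Basement membrane collagens were called in both directions. Collagen IV genes lie head to head on their chromosomes, so that each pair is read in opposite directions from a shared stretch of DNA. COL4A1 and COL4A2 encode the chains of the collagen IV trimer found in nearly all basement membranes, and COL4A5 and COL4A6 encode chains of a more restricted form. The called chain of the first pair was higher in shp105 cells, and both chains of the second pair were lower.

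COL4A2 read 7.53, 7.67 and 7.77 in shp105 cells in DMSO, against 7.42, 7.19 and 7.21 in shControl cells. After TMZ the levels were 7.89, 8.06 and 8.01 in shp105 cells, against 7.47, 7.55 and 7.59 in shControl cells. The lines did not overlap within a treatment, and the differences were 0.38 (SE 0.08, adjusted p = 0.00586) in DMSO and 0.45 (SE 0.08, adjusted p = 0.00188) with TMZ. COL4A1, measured at low levels of 4.11 to 4.57, differed by 0.18 (adjusted p = 0.255) in DMSO and 0.07 (adjusted p = 0.713) with TMZ and was not called.

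COL4A6 read 7.87, 8.05 and 8.12 in shp105 cells in DMSO, against 8.67, 8.66 and 8.70 in shControl cells. The TMZ arrays read 8.01, 8.06 and 8.03 in shp105 cells, against 8.56, 8.68 and 8.60 in shControl cells. Every shp105 array was below every shControl array, with differences of -0.66 (SE 0.06, adjusted p = 1.65e-05) and -0.58 (SE 0.06, adjusted p = 4.62e-05). COL4A5 was lower too, with differences of -0.27 (SE 0.07, adjusted p = 0.0143) in DMSO and -0.25 (SE 0.07, adjusted p = 0.0216) with TMZ. With the mean of each gene's probe sets in place of the brightest one, 1 of the 4 chains was called under each treatment, and it was lower. With the spike-in level of each array as a covariate, 0 were called in DMSO and 1, which was lower, with TMZ. COL4A2 lost its call under both treatments in both of these settings and with its second brightest probe set.

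The sequences between the paired starts are shown because the chains of each pair share them. The starts of COL4A2 and COL4A1 are 126 bases apart at chr13:110307158-110307283, and the starts of COL4A5 and COL4A6 are 379 bases apart, of which the 121 bases at chrX:108439588-108439708 lie within 250 bases upstream of both. Both are on the plus strand of GRCh38.p14, from RefSeq, and capitals mark CCAAT, its reverse ATTGG and GGGCGG.
COL4A2 and COL4A1: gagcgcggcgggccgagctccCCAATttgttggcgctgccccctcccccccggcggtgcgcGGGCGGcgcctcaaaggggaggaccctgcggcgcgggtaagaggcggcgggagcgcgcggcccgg
COL4A5 and COL4A6: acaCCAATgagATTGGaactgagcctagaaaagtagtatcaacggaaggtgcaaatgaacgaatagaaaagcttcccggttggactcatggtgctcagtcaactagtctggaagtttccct

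Of the 6 other collagens, 1 was higher and 5 lower in DMSO, and 1 was higher and 4 lower with TMZ. Without shp105 DMSO replicate 1 or replicate 3, 3 were called in DMSO, 1 higher and 2 lower. With the spike-in level of each array as a covariate, 0 were called in DMSO and 1, which was higher, with TMZ, so that every lower call was lost. COL8A1, a chain of the short-chain collagen VIII, had the largest decrease under both treatments, followed with TMZ by COL13A1, a collagen that spans the cell membrane.

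COL8A1 read 7.04, 7.04 and 7.14 in shp105 cells in DMSO, against 8.03, 7.80 and 7.72 in shControl cells. On TMZ, the arrays read 7.08, 7.02 and 7.41 in shp105 cells, against 7.95, 8.04 and 7.95 in shControl cells. All shp105 arrays were lower, with differences of -0.77 (SE 0.10, adjusted p = 0.000219) and -0.81 (SE 0.10, adjusted p = 0.000148). The call was lost under both treatments with its second brightest probe set (-0.18, adjusted p = 0.617 in DMSO, and -0.31, adjusted p = 0.287 with TMZ), with the mean of its probe sets (-0.29 and -0.32) and with the spike-in covariate (-0.58 and -0.67).

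COL13A1 read 9.73, 9.73 and 9.85 in shp105 cells in DMSO, against 10.20, 10.11 and 10.08 in shControl cells. Under TMZ the values were 9.56, 9.24 and 9.57 in shp105 cells, against 9.96, 10.01 and 9.94 in shControl cells. The lines did not overlap, and the differences were -0.36 (SE 0.08, adjusted p = 0.00985) and -0.51 (SE 0.08, adjusted p = 0.000947). Within collagen VI, a microfibril of 3 chains, COL6A1 and COL6A2 were lower (-0.23 and -0.36 in DMSO, -0.20 and -0.37 with TMZ) and COL6A3 was higher (0.35, SE 0.05, adjusted p = 0.000173 in DMSO, and 0.33, adjusted p = 0.000262 with TMZ).

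Laminins are trimers of an alpha, a beta and a gamma chain, and 4 of the 7 chains were higher in shp105 cells under both treatments, with 1 lower in DMSO and 2 with TMZ. LAMA4, the alpha chain of laminins of vessel and mesenchymal basement membranes, had the largest difference of the 39 genes by the brightest probe set. It read 7.65, 7.86 and 7.86 in shp105 cells in DMSO, against 6.23, 6.07 and 5.88 in shControl cells. Its TMZ levels were 7.78, 7.82 and 7.68 in shp105 cells, against 5.98, 6.04 and 5.97 in shControl cells. The lines were far apart relative to the spread of their arrays, at 1.73 (SE 0.09, adjusted p = 7.66e-08) in DMSO and 1.76 (SE 0.09, adjusted p = 7.03e-08) with TMZ, or 3.33-fold and 3.39-fold. With the mean of each gene's probe sets, LAMA4 differed by 0.78 in DMSO and 0.81 with TMZ, and COL5A2 by 1.85 and 1.72. The first place thus depends on the probe sets used. In these cultures, a difference in the share of cells that make a protein and a difference in RNA per cell cannot be told apart.

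The 250 bases upstream of a LAMA4 start are printed because this gene had the largest difference by the brightest probe set. They lie at chr6:112254568-112254817 on the minus strand of GRCh38.p14, from RefSeq. This window lies inside the annotated gene, which reaches to 112254985, so the start used is not the outermost one. The motifs searched on both strands were those of NF-kB (GGGRNNYYCC) and AP-1 (TGANTCA), the TATA box (TATAAA), the CCAAT box and the GC box (GGGCGG). In these patterns R is A or G, Y is C or T, and N is any base. None of the motifs occurs in this window, so no letters are in capitals.
LAMA4: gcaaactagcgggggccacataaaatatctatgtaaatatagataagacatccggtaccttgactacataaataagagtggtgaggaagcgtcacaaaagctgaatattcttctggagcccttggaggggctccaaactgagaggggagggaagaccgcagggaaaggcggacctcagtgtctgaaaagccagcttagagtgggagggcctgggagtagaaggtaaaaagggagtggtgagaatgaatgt

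LAMB3, the beta chain of a laminin of epithelial basement membranes, read 7.41, 7.59 and 7.57 in shp105 cells in DMSO, against 6.52, 6.36 and 6.71 in shControl cells. After TMZ the levels were 7.67, 7.90 and 7.69 in shp105 cells, against 6.61, 6.60 and 6.79 in shControl cells. All shp105 arrays were higher, by 0.99 (SE 0.10, adjusted p = 2.08e-05) and 1.09 (SE 0.10, adjusted p = 1.02e-05).

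LAMA2, the alpha chain of muscle and nerve laminins, was also higher, by 0.67 (SE 0.12, adjusted p = 0.00154) in DMSO and 0.62 (adjusted p = 0.00248) with TMZ. LAMC1, the gamma chain of most laminins, was higher by 0.33 (SE 0.05, adjusted p = 0.000908) and 0.30 (adjusted p = 0.00169). The beta-2 chain LAMB2 was lower (-0.30, adjusted p = 0.0185, and -0.26, adjusted p = 0.032). LAMA5 was called lower with TMZ (-0.21, adjusted p = 0.0219) and not in DMSO (-0.12, adjusted p = 0.181). LAMB1, the widespread beta-1 chain, was not called in either (-0.03 and 0.04).

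**Figure D2:**
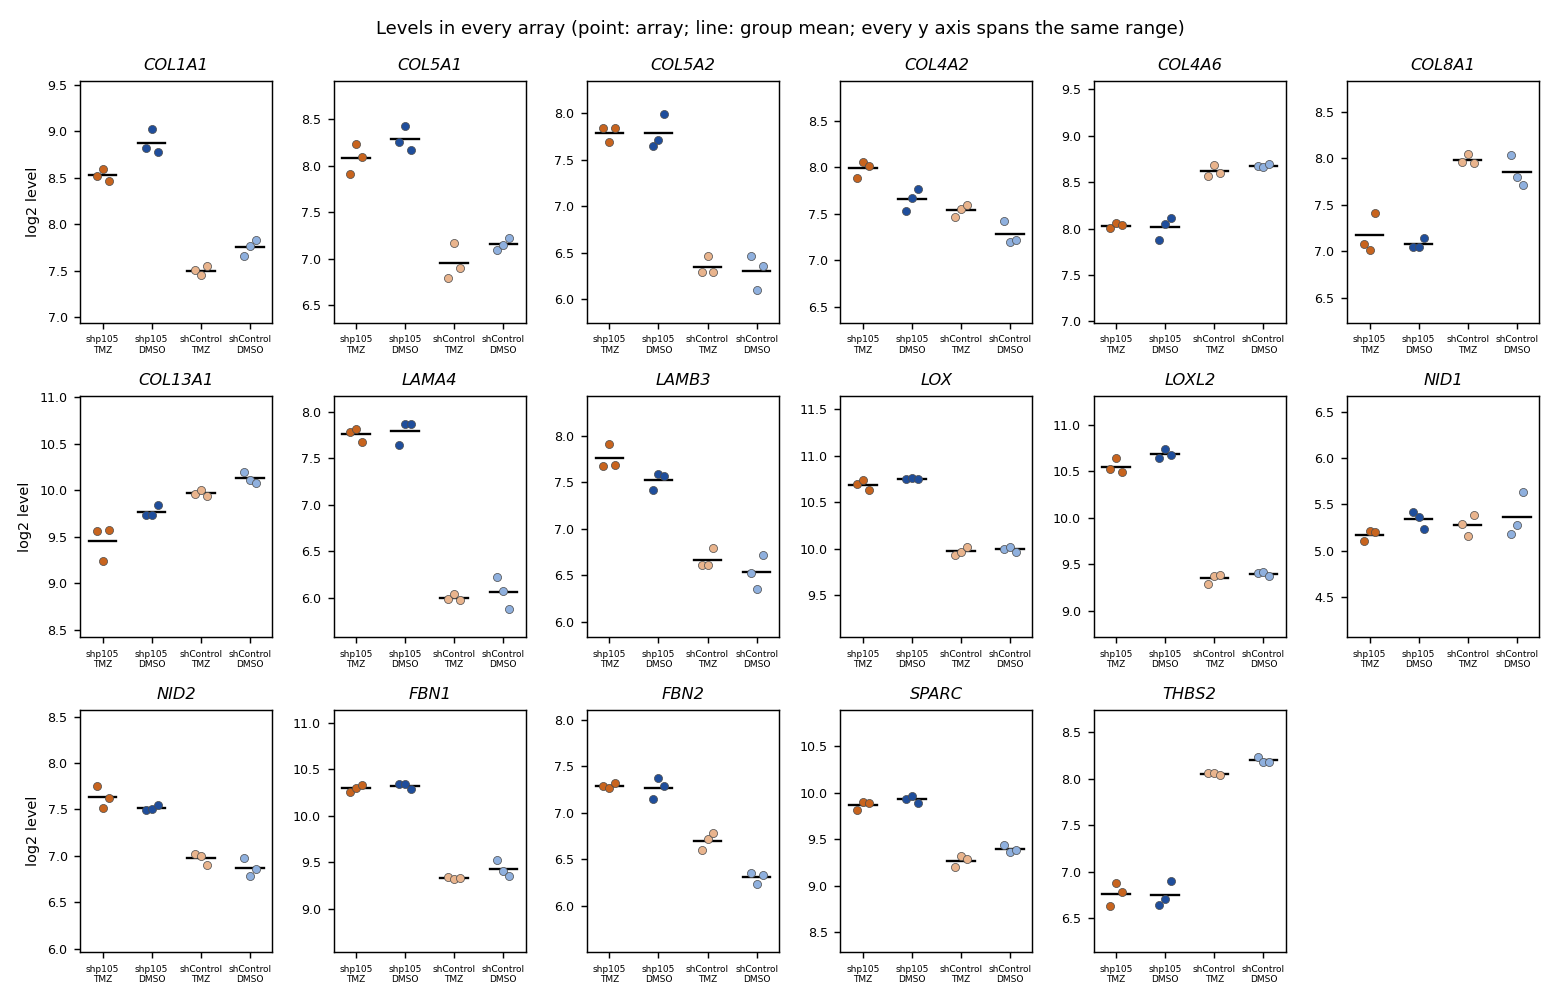
Log2 level on every array of 17 matrix genes, in shp105 cells with TMZ and DMSO and in shControl cells with TMZ and DMSO; points are arrays, lines are group means, and each y axis spans the same range of log2 units. LAMA4, LOXL2 and THBS2 separate the lines by more than 1 unit under both treatments, while the NID1 arrays overlap.

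Cross-linking enzymes moved apart within their family. LOXL2, a lysyl oxidase family member that acts on collagen IV and fibrillar collagen, read 10.65, 10.74 and 10.67 in shp105 cells in DMSO, against 9.40, 9.42 and 9.37 in shControl cells. The TMZ arrays read 10.52, 10.64 and 10.49 in shp105 cells, against 9.29, 9.37 and 9.38 in shControl cells. Every shp105 array lay above every shControl array, by 1.29 (SE 0.05, adjusted p = 1.84e-08) in DMSO and 1.20 (SE 0.05, adjusted p = 3.31e-08) with TMZ.

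LOX itself read 10.76, 10.76 and 10.75 in shp105 cells in DMSO, against 10.00, 10.02 and 9.97 in shControl cells. On TMZ, the arrays read 10.70, 10.74 and 10.64 in shp105 cells, against 9.94, 9.97 and 10.02 in shControl cells. All shp105 arrays were higher, by 0.76 (SE 0.05, adjusted p = 4.53e-07) and 0.71 (SE 0.05, adjusted p = 7.97e-07). LOXL3 was lower in shp105 cells, with a difference of -0.56 (SE 0.06) under both treatments (adjusted p = 3.73e-05 and 3.8e-05). LOXL1, known for its role in elastic fibres, was called lower with TMZ (-0.17, adjusted p = 0.0465) and not in DMSO (-0.12, adjusted p = 0.173), and LOXL4 was not called (-0.05 and -0.00).

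The nidogens, which link laminin to collagen IV, differed from each other. NID2 read 7.50, 7.51 and 7.54 in shp105 cells in DMSO, against 6.98, 6.78 and 6.86 in shControl cells. Under TMZ the values were 7.75, 7.52 and 7.62 in shp105 cells, against 7.02, 7.0 and 6.91 in shControl cells. All shp105 arrays were higher, by 0.64 (SE 0.07, adjusted p = 4.69e-05) and 0.66 (adjusted p = 3.83e-05).

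NID1 read 5.42, 5.37 and 5.23 in shp105 cells in DMSO, against 5.18, 5.28 and 5.64 in shControl cells. Its TMZ levels were 5.10, 5.21 and 5.21 in shp105 cells, against 5.29, 5.16 and 5.39 in shControl cells. The lines overlapped under both treatments, and the differences of -0.03 (adjusted p = 0.916) and -0.10 (adjusted p = 0.581) were not called.

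Fibrillins, which build the microfibrils on which elastin is laid down, were higher in shp105 cells, and fibronectin was lower. FBN1 read 10.35, 10.34 and 10.29 in shp105 cells in DMSO, against 9.52, 9.41 and 9.36 in shControl cells. After TMZ the levels were 10.26, 10.29 and 10.33 in shp105 cells, against 9.34, 9.32 and 9.33 in shControl cells. The lines were well separated, by 0.90 (SE 0.05, adjusted p = 2.69e-07) in DMSO and 0.96 (adjusted p = 1.69e-07) with TMZ.

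FBN2 read 7.15, 7.37 and 7.29 in shp105 cells in DMSO, against 6.35, 6.24 and 6.33 in shControl cells. The TMZ arrays read 7.29, 7.27 and 7.32 in shp105 cells, against 6.60, 6.72 and 6.79 in shControl cells. All shp105 arrays were higher, by 0.97 (SE 0.07, adjusted p = 1.28e-06) in DMSO and by 0.59 (SE 0.07, adjusted p = 7.04e-05) with TMZ. FN1, the adhesive glycoprotein fibronectin, was lower, with differences of -0.41 (SE 0.05, adjusted p = 6.9e-05) and -0.37 (adjusted p = 0.000137), with no overlap of the lines.

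Of the 6 matricellular genes, 2 were higher and 1 lower under both treatments. THBS2, which encodes thrombospondin-2, an inhibitor of angiogenesis and a regulator of collagen fibre assembly, had the largest decrease of the list. It read 6.64, 6.71 and 6.90 in shp105 cells in DMSO, against 8.24, 8.18 and 8.18 in shControl cells. On TMZ, the arrays read 6.64, 6.88 and 6.78 in shp105 cells, against 8.06, 8.06 and 8.05 in shControl cells. Every shp105 array was more than a log2 unit below every shControl array, with differences of -1.45 (SE 0.08, adjusted p = 9.06e-08) and -1.29 (SE 0.08, adjusted p = 2.41e-07).

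The 250 bases upstream of the THBS2 start, at chr6:169253847-169254096 on the minus strand of GRCh38.p14 from RefSeq, are printed because this gene had the largest decrease of the list. Capitals mark a TATAAA at bases 29 to 24 before the start.
THBS2: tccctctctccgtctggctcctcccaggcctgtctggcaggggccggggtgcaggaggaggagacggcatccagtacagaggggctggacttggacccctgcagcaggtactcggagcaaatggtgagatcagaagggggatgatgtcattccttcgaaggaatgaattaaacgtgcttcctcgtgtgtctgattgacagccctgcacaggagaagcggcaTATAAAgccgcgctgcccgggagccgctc

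SPARC, a collagen-binding glycoprotein, read 9.93, 9.97 and 9.89 in shp105 cells in DMSO, against 9.44, 9.36 and 9.38 in shControl cells. Under TMZ the values were 9.82, 9.90 and 9.89 in shp105 cells, against 9.21, 9.32 and 9.29 in shControl cells. All shp105 arrays were higher, by 0.54 (SE 0.05, adjusted p = 1.73e-05) and 0.60 (SE 0.05, adjusted p = 6.91e-06). VCAN, the proteoglycan versican, was higher by 0.47 (SE 0.05, adjusted p = 4.76e-05) in DMSO and 0.33 (adjusted p = 0.000776) with TMZ. TNC, the tenascin abundant in gliomas, was not called (0.10 and -0.01), nor was THBS1 (0.07 and -0.03), and POSTN stayed under the level of the absent-sequence controls.

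Upstream sequence was at hand for 32 of the 39 genes, with 39 starts between them; COL1A1, COL1A2, COL3A1, COL5A2, COL6A1, COL8A1 and LOXL2 are named only. Within 250 bases upstream, the NF-kB motif was found in 4 of the 32 genes (COL6A2, LAMB3, LOXL4 and NID1), against 9.96% of 35116 starts in the RefSeq table. GGGCGG was found in 22 of the 32, against 42.6% of starts, CCAAT in 12, against 32%, TATAAA in 4, against 10.7%, and the AP-1 motif TGANTCA in LAMB3 and POSTN, against 6.57%. Of the 4 genes with the NF-kB motif, LAMB3 was higher in shp105 cells under both treatments, COL6A2 was lower, and LOXL4 and NID1 were not called. A match of letters is a description and shows no binding, and genes with several starts have more windows than 1.

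Genes that make and modify collagen were more often higher than lower in shp105 cells. Of 21 measured collagen-processing genes, 10 were higher and 1 lower in DMSO (52.4% called, median log2 difference 0.22). With TMZ 10 were higher and 2 lower (57.1% called, median 0.21). Of all genes, 19.9% were called in DMSO, 8.34% higher and 11.6% lower. With TMZ 21.1% of all genes were called, 10.1% higher and 11% lower. Medians over all genes were -0.01. P3H2, a prolyl 3-hydroxylase that acts on collagen IV, was higher by 2.41 (SE 0.09, adjusted p = 6.53e-09) in DMSO and 2.50 (adjusted p = 4.92e-09) with TMZ. The lysyl hydroxylase PLOD1 was higher by 0.52 in DMSO, the procollagen N-proteinase ADAMTS2 was higher by 0.66 with TMZ, and PCOLCE, an enhancer of procollagen cleavage, was lower under both (-0.67 and -0.63). With the spike-in level of each array as a covariate, 2 of these genes were called in DMSO and 4 with TMZ, all higher.

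In further matrix groups calls went both ways, and their shares are set against the 19.9% of all genes called in DMSO and 21.1% with TMZ. Of 20 other collagen chains, 1 was higher and 3 lower in DMSO (COL15A1 -0.59, COL16A1 -0.34 and COL27A1 0.26 among them), and 1 was higher and 2 lower with TMZ (COL9A3 0.54, COL11A2 -0.30 and COL16A1 -0.27); at 20% and 15% called, this group was near or below the share of all genes. These counts fell to 1 or 2 in DMSO without shp105 DMSO replicate 1 or 2, shControl DMSO replicate 2 or shControl TMZ replicate 1. With TMZ they fell to 1 without shp105 TMZ replicate 1 or shControl TMZ replicate 2 or 3. Of 9 other basement membrane genes, 3 were higher and 2 lower under both treatments (55.6% called): the peroxidase PXDN, which cross-links collagen IV, was lower (-0.72 and -0.57) and the laminin-related NTN4 was higher (0.62 and 0.45). Of 16 elastic-fibre genes, 2 were higher and 4 lower in DMSO (37.5% called), and 3 were higher and 4 lower with TMZ (43.8%). In that group the fibulin family member EFEMP1 was lower (-1.42, adjusted p = 2.82e-08, and -1.12, adjusted p = 2.01e-07), and FBLN1 was higher by 0.93 and 0.89.

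Of 25 further matricellular and proteoglycan genes, 6 were higher and 5 lower in DMSO, and 7 were higher and 4 lower with TMZ (44% called under both). The keratan sulfate proteoglycan LUM was lower (-0.91 and -0.77) and CCN2, the connective tissue growth factor, was higher (0.85 and 0.71). In the TGF-beta pathway, a main inducer of matrix genes, 4 of 17 genes were higher and 3 lower in DMSO (41.2% called), and 3 were higher and 3 lower with TMZ (35.3%). BAMBI, a pseudoreceptor that restrains the pathway, was higher by 1.22 and 1.31, the inhibitory SMAD6 by 0.51 and 0.70, and the ligand TGFB2 by 0.37 and 0.39. With the spike-in covariate the calls in DMSO and with TMZ were 1 and 2 in the TGF-beta group, 0 and 0 among other collagen chains, 0 and 1 in the basement membrane group, 2 and 4 in the elastic-fibre group, and 2 and 3 among matricellular and proteoglycan genes. None of these groups held a called gene in either TMZ response, against 0.865% of all genes in shp105 cells and 0.369% in shControl cells. At those shares few calls would be expected in groups of this size.

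Few of the listed genes were called in the TMZ response of either line. In shp105 cells 0 of the 39 were called, against 0.865% of all genes (0.647% higher and 0.217% lower). At an unadjusted p under 0.05 in limma's test there were 9 of the 39, against 3225 of all 19775 genes. In shControl cells 1 was called, against 0.369% of all genes (0.253% higher and 0.116% lower). There 11 of the 39 had an unadjusted p under 0.05 in limma's test, against 2180 of all 19775 genes. The median size of the response was 0.09 in shp105 cells and 0.11 in shControl cells, against 0.09 and 0.07 over all genes. Arrays with TMZ and DMSO did not overlap for 13 of the 39 genes in shp105 cells and 17 in shControl cells, against 20.4% and 20.3% of all genes.

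The called gene was FBN2, whose arrays are given above: in shControl cells it rose with TMZ by 0.39 (SE 0.07, adjusted p = 0.0402), with every TMZ array above every DMSO array. The call was lost in 17 of 23 other settings, with adjusted p from 0.00516 to 0.788 over the 23. Of the 12 removals of 1 array it was lost in 10 and kept without shp105 DMSO replicate 1 (adjusted p = 0.0372) or replicate 2 (adjusted p = 0.0418). In shp105 cells FBN2 differed by 0.02 (adjusted p = 0.91). The difference between both responses, -0.37 (SE 0.10), was not called (adjusted p = 0.564), and 0% of all genes were called in that comparison.

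**Figure D3:**
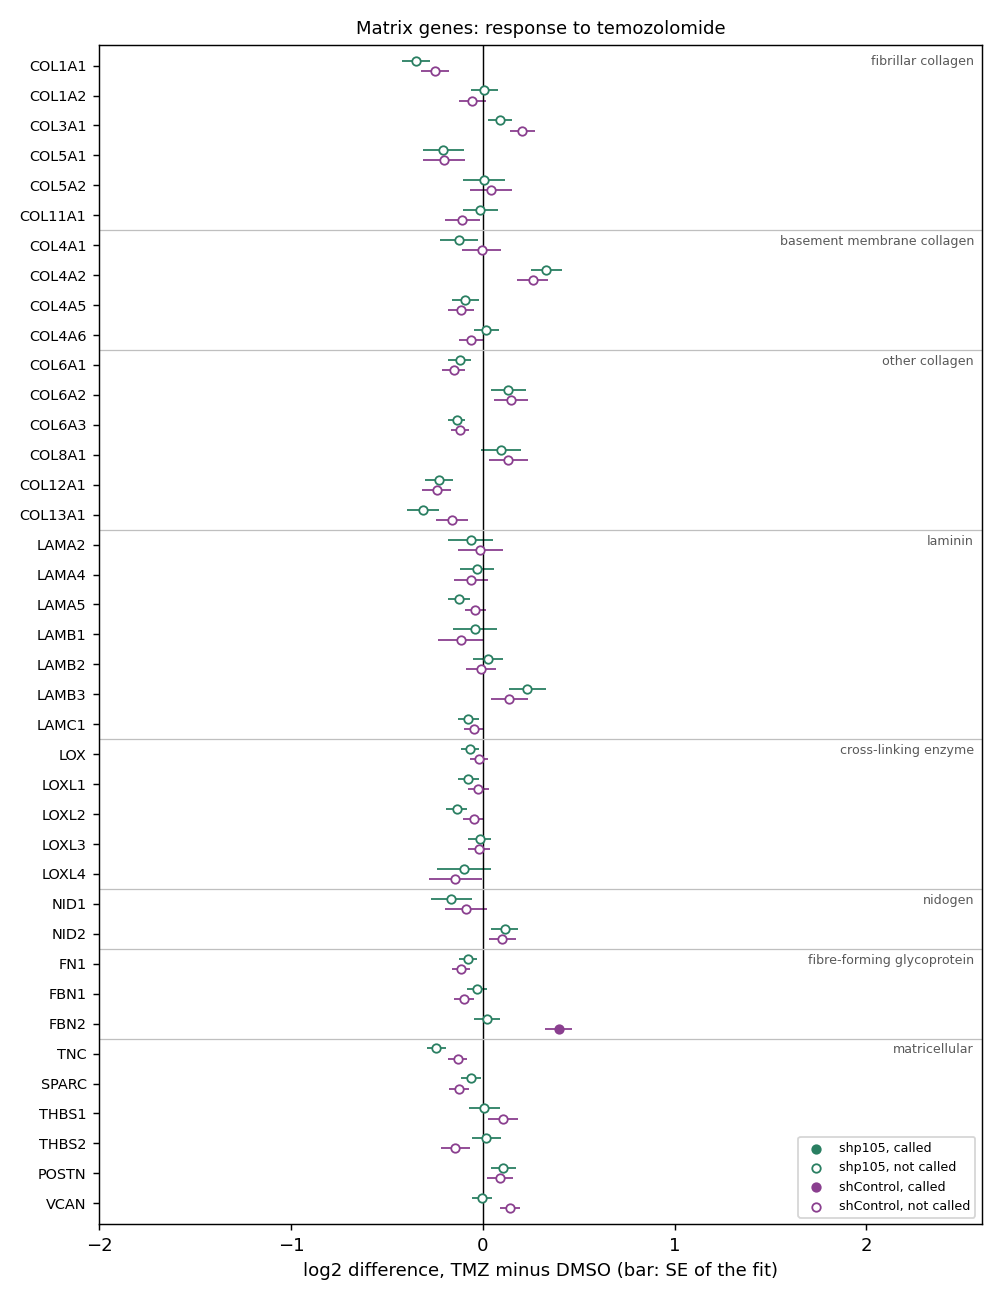
Log2 difference between TMZ and DMSO for the 39 matrix genes, grouped by role, in shp105 cells (green) and shControl cells (purple), on the same axis range as the plot of line differences; bars are standard errors of the fit and filled points are called. FBN2 in shControl cells is the single filled point.

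Among genes that were not called, COL1A1 had the lowest value in shp105 cells, -0.35 (adjusted p = 0.0529), and read -0.25 (adjusted p = 0.241) in shControl cells. COL4A2 read 0.33 (adjusted p = 0.0791) in shp105 cells and 0.26 (adjusted p = 0.265) in shControl cells. COL13A1 read -0.31 (adjusted p = 0.098) in shp105 cells and -0.16 (adjusted p = 0.523) in shControl cells. TNC read -0.24 (adjusted p = 0.0518) in shp105 cells and -0.13 (adjusted p = 0.366) in shControl cells. With genes under the median level left out, COL1A1, COL4A2 and COL13A1 were called in shp105 cells (adjusted p = 0.00926, 0.0179 and 0.0258). These are the ones among the genes with array values, and the count over the whole list is given further below. TNC is not a gene with array values, and its result in that setting is not given here. The difference of responses called 0 of the 39 genes in limma's test. Only 1, FBN2, had an unadjusted p under 0.05, against 1266 of all 19775 genes.

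Several probe sets were present for 31 of the 39 genes, and levels are compared here only within a probe set. With p adjusted over 41097 probe sets in limma's test, the brightest probe set of 20 such genes was called in DMSO. Of these 20, 14 had all probe sets on the same side and 12 had another called the same way. COL1A2 and COL12A1 were not called with that adjustment (adjusted p = 0.0541 and 0.0684) and are not among the 20. With TMZ 21 were called, of which 12 had all on the same side, 12 had another called the same way and 1 had another called the opposite way. COL5A2 had a second probe set with a difference of 2.22 in DMSO and 2.0 with TMZ, LAMA4 had others at 1.03 and 0.55 in DMSO, and FBN1 at 1.10 and 0.83. For FN1 the 4 brightest probe sets lay between -0.39 and -0.46 in DMSO.

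Other genes had probe sets that disagreed. The second brightest COL1A1 probe set differed by 0.02 in DMSO (adjusted p = 0.901), while the next in brightness differed by 0.90. With the second brightest probe set 7 genes lost their line calls under both treatments: COL1A1, COL4A2, COL4A6, COL8A1, COL13A1, LOXL2 and FBN2. The second brightest sets of LOXL2 (0.36, adjusted p = 0.0727) and FBN2 (0.15, adjusted p = 0.509) were not called in DMSO. COL1A2 had its dimmest probe set called the other way (-0.50, adjusted p = 0.0103 in DMSO, and -0.77, adjusted p = 0.000536 with TMZ), so its direction depends on the probe set. TNC had a second probe set higher by 0.43 (adjusted p = 0.00353) and another lower (-0.52, adjusted p = 0.000725) in DMSO. The dimmest NID1 probe set differed by -1.68 (SE 0.16, adjusted p = 1.49e-05) in DMSO and -1.46 (adjusted p = 5.06e-05) with TMZ, but it averaged 2.53 in shp105 cells and 4.21 in shControl cells in DMSO, near the level of the absent-sequence controls.

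**Figure D4:**
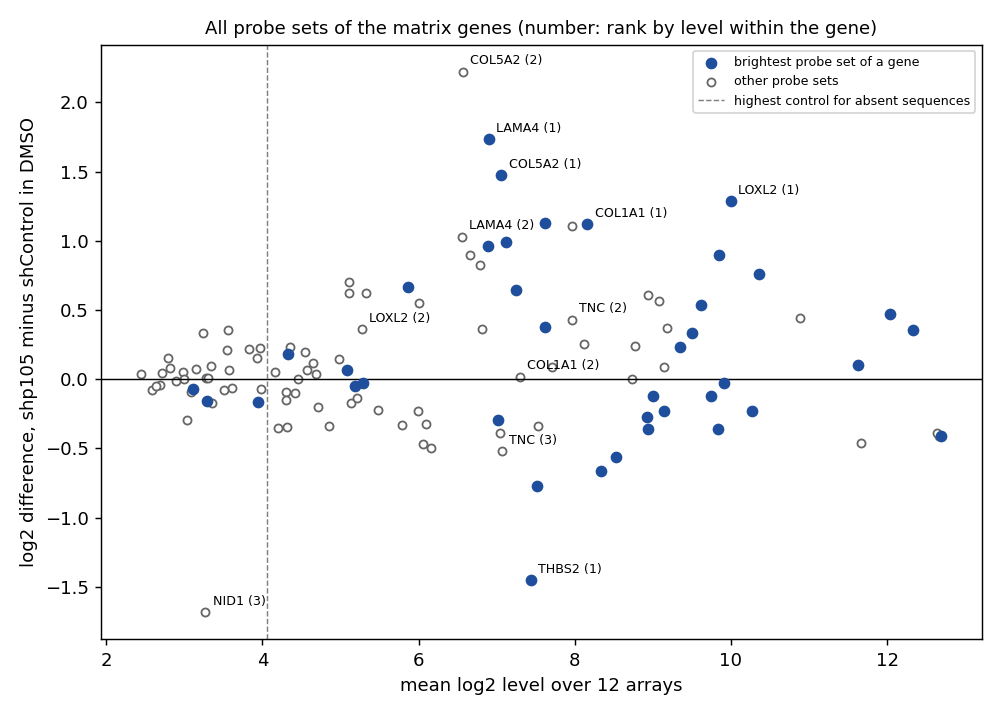
Every probe set of the 39 genes, by mean log2 level over 12 arrays (x axis) and log2 difference between shp105 and shControl cells in DMSO (y axis); filled points are the brightest probe set of a gene, numbers in brackets give the rank by level within the gene, and the dashed line is the highest absent-sequence control at 4.06. Both COL5A2 probe sets lie above 1.4, while the second COL1A1 probe set lies at 0.02.

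Marker levels and spike-ins moved with the lines, and their part in the results above was not tested beyond the following. The mean level of 10 fibroblast and mural markers ran from 6.42 to 6.46 in shp105 and 6.70 to 6.77 in shControl arrays with TMZ, and from 6.40 to 6.42 in shp105 and 6.68 to 6.72 in shControl arrays with DMSO. Of these markers 1 was higher and 4 lower in shp105 cells in DMSO (50% called), and 2 were higher and 4 lower with TMZ (60%). Of all genes, 19.9% were called in DMSO and 21.1% with TMZ. PDGFRA was under the control level in all groups. The mean level of the 10 glioma and glial markers was higher in shp105 arrays. With TMZ it ran from 6.59 to 6.67 in shp105 and 6.10 to 6.19 in shControl arrays. With DMSO it ran from 6.51 to 6.58 in shp105 and 6.10 to 6.25 in shControl arrays. Of these, CHI3L1 and OLIG2 were higher, 1 was lower and 7 were not called under both treatments (30% called). The median log2 difference of the 10 was 0.02 in DMSO and 0.11 with TMZ. CHI3L1 averaged 7.42 in shp105 and 4.46 in shControl cells with TMZ, and 6.91 in shp105 and 4.71 in shControl cells with DMSO. OLIG2 averaged 5.38 in shp105 and 4.02 in shControl cells with TMZ, and 5.27 in shp105 and 4.05 in shControl cells with DMSO. Its shControl means thus lay just under the highest absent-sequence control, 4.06. With the spike-in level of each array added to the fit, 9 of the 39 genes were called in DMSO and 15 with TMZ, while all 28 and 30 genes kept their sign. Standard errors grew by a median factor of 2.49 in DMSO and 1.98 with TMZ, and the median size among the called genes was 0.54 in DMSO, against 0.60 without the covariate. LAMA4 (1.68), THBS2 (-1.41), COL5A2 (1.26), COL1A1 (1.26), LOXL2 (1.24), COL5A1 (1.21), FBN2 (0.98), FBN1 (0.96) and LOX (0.67) were the 9 called in DMSO.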

How the data were processed

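Total RNA of 12 cultures was measured on Affymetrix expression arrays. The deposited values are log2 levels per probe set; RMA and Affymetrix Power Tools made them, per the submitters' processing notes, without versions. The genome build and annotation release are not given in the sources used.

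Of 54675 probe sets, 41097 had 1 gene symbol, 1801 had several and 11777 none. The brightest single-symbol probe set stood for each of 19775 genes, with no filter on dim genes. The listed genes and the further gene groups were chosen with earlier results of these data known.

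One fit of 4 group means over 12 arrays (limma 3.58.1, lmFit and eBayes, R 4.3.3) gave 2-sided tests, adjusted by Benjamini-Hochberg over all genes and called under 0.05. It was tested on simulated data. The labels do not say that replicates came from separate transfections, so p-values measure the spread between these cultures, and 3 arrays a group limit the precision. Groups came from the sample labels.

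Array values are given for genes with a 2-fold line difference or a called TMZ response. Roles with fewer than 2 such genes were filled by the largest called line differences, then by the highest levels, as for NID1. From each further gene group, up to 3 called genes per line comparison with the largest size are named. Bases upstream of starts are from RefSeq (GRCh38.p14). Alternatives changed normalization, probe-set summary, filter, variance model, threshold, covariate, replicate block and arrays.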

Additional observations from a re-analysis of the deposited data

How the results depend on the processing

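The number of listed genes called between the lines kept within 1.5 times of 28 in DMSO and 30 with TMZ in most settings. The exceptions were the spike-in level as a covariate (9 in DMSO and 15 with TMZ) and a 2-fold minimum (6 and 7). Leaving out 1 array at a time gave 23 to 28 in DMSO and 25 to 30 with TMZ. For the TMZ response of shp105 cells, where 0 was called, averaging a gene's probe sets and quantile normalization each called 1, leaving out dim genes called 5 and a trended, robust variance called 6; leaving out 1 array gave 0 to 0. For that of shControl cells, where 1 was called, the mean of probe sets, median centring, fitting the compared groups alone, the replicate block, the spike-in covariate, an adjusted p under 0.01, a 2-fold minimum and probe sets taken singly each called 0, and leaving out 1 array gave 0 to 1. The difference of responses called 0 in every setting run, leave-one-out included (0 to 0).

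Same-numbered cultures did not clearly deviate together (18 pairs, r from -0.226 to 0.233, 5 over 0.1, 7 best matched to their own number). With 3 arrays a group this check cannot exclude pairing, which the labels do not state. With a replicate block the line counts were 27 in DMSO and 29 with TMZ. Of the 32 called line differences of the genes with array values, 15 kept their call in all settings; 28 of 730 alternative values lost it, none by leaving out an array, and no sign was reversed. The second brightest probe set ended 14 of these calls, the spike-in covariate 10 and the mean of probe sets 4. NID1 was called lower with the mean of its probe sets (-0.62 in DMSO, adjusted p = 2.91e-05). In the further gene groups the spike-in covariate also lowered the counts, and averaging probe sets called 3 TGF-beta genes in DMSO, against 7. Causes were not tested.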

Other observations

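Marker genes of other cell types, fixed to check the culture, held large line differences of their own. PDPN, a membrane mucin of mesenchymal and lymphatic cells, averaged 5.12 in shp105 cells and 7.05 in shControl cells in DMSO (log2 difference -1.93, adjusted p = 1.41e-06). With TMZ it averaged 4.70 in shp105 cells and 7.28 in shControl cells (-2.57, adjusted p = 1.39e-07). TEK, an angiopoietin receptor, was higher by 1.53 in DMSO (adjusted p = 9.48e-07) and 1.54 with TMZ (adjusted p = 9.95e-07). Of the other 7 endothelial markers, CDH5, ERG and EMCN stayed under the absent-sequence controls. PECAM1 averaged 5.81 to 5.87, VWF 4.48 to 4.73, KDR 4.23 to 4.78 and CLDN5 4.27 to 4.51. KDR was called the other way in DMSO, at 4.23 in shp105 and 4.78 in shControl cells (log2 difference -0.56). With TMZ, TEK alone of the 8 markers was called. CSPG4, a mural and glial progenitor proteoglycan that binds collagen VI, was higher by 0.65 in DMSO (adjusted p = 0.00157) and 0.66 with TMZ (adjusted p = 0.00138). RGS5, a pericyte gene, was lower (-0.53 and -0.49). The keratin gene KRT8 was higher by 0.69 in DMSO (adjusted p = 0.00011) and 0.80 with TMZ (adjusted p = 3.1e-05), and EPCAM was lower (-0.39 and -0.45). Of the 8 epithelial markers, 2 were higher and 1 lower in DMSO (37.5% called, against 19.9% of all genes). With TMZ 1 was higher and 1 lower (25% called, against 21.1%). CDH1 and KRT19 stayed under the absent-sequence controls.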
